A study of Mus musculus with 22 samples.

Results

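Pomc, Cartpt, Prdm12, Tbx3, Nhlh2 and Glipr1 are 6 genes by which pro-opiomelanocortin (POMC) neurons of the arcuate nucleus are recognised, and their transcripts were followed in every library of a ribosome pulldown experiment on mouse hypothalamus. The 6 were taken by gene symbol from a table of 17440 genes, and each matched 1 row. Libraries came from 4 MCH-hM3Dq mice (mice 1, 3, 4 and 5, of 5 that the series' design names) and 7 control mice (mice 1 to 7), where MCH is melanin-concentrating hormone and hM3Dq is an activating receptor that responds to clozapine N-oxide (CNO). All mice were on a C57BL/6N background, 10 to 13 weeks old, fasted for 12 h and injected with CNO intraperitoneally 1 h before the arcuate nucleus and median eminence were taken, so the controls carried the fast and the drug too. From each mouse an immunoprecipitate (IP) of ribosomes whose S6 protein was phosphorylated (residues 244 and 247) and an input, taken from the homogenate before the antibody went in, were sequenced. The method is known as phosphoTRAP, and the numbers of a mouse's IP and input name the same animal. The labels mark the MCH-hM3Dq mice as tg and the controls as control and wt, and do not say which promoter drove the receptor, how it was delivered or whether the controls are littermates. The series is set up to ask which transcripts on ribosomes with phosphorylated S6 respond when MCH neurons are driven.

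POMC neurons cut food intake. They release alpha-melanocyte-stimulating hormone, which acts on melanocortin receptors, and neighbouring AgRP neurons oppose them by releasing the receptor antagonist AgRP. Fasting lowers Pomc transcription in rodents, and phosphorylated S6 is used as a mark of recently active neurons. Of the genes studied, Pomc encodes the precursor that is cut to alpha-melanocyte-stimulating hormone and beta-endorphin, and Cartpt encodes the precursor of the appetite-reducing CART peptides. Tbx3 and Prdm12 are transcription factors that mouse POMC neurons need for their identity and for starting Pomc expression, and Nhlh2 is a basic helix-loop-helix factor whose loss makes mice obese. Glipr1, a secreted or membrane protein of the CAP family, names a subset of POMC neurons in single-cell surveys of the mouse arcuate nucleus. None of the genes belongs to POMC neurons alone. Tbx3 is also known in AgRP neurons and tanycytes, Cartpt in MCH neurons, and Pomc in corticotrophs of the pituitary.

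Pomc lies on chromosome 12 of GRCm38 (3954951 to 3960642, plus strand) and Cartpt on chromosome 13 (99898489 to 99901091, minus strand). Their promoters are shown because these 2 peptide precursors were the most abundant of the 6 genes. Each sequence is from RefSeq (GRCm38.p6), runs 5′ to 3′ on the gene's own strand, and spans 250 bases before to 50 bases after the start site. Capitals mark a TATA box (TATAAA) in Pomc and a cyclic AMP response element (TGACGTCA) in Cartpt.
Pomc (chr12:3954695-3954994, plus strand): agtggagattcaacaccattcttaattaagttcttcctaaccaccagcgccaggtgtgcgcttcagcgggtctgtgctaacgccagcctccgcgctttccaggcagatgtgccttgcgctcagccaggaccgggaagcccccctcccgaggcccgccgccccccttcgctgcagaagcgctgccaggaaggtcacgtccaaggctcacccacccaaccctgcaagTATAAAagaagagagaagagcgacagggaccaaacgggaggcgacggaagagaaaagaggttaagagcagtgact
Cartpt (chr13:99900634-99900933, minus strand): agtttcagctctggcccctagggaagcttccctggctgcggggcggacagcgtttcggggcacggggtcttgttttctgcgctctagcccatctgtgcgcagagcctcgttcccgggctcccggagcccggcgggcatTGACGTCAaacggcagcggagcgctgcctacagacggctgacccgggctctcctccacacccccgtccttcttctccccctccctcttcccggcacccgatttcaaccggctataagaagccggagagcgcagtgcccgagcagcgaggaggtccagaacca
The TATAAA of Pomc began 25 bases before its start site, and 13.6% of 32851 promoters of this length held those letters on either strand. The TGACGTCA of Cartpt began 112 bases before its start site, and 1.79% of promoters held it. Both strands were searched. The AP-1 letters TGANTCA, present in 7.81% of promoters, were in none of the 4 promoters given for these genes in the table used (Pomc, Cartpt, Prdm12 and Nhlh2). The E-box letters CANNTG, present in 72.3% of promoters, matched 4 times in Nhlh2, 2 times in Pomc, 1 time in Cartpt and 0 times in Prdm12. A match is a description of the letters only.

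The values are normalized FPKM (fragment counts divided by transcript length and by the size of the library) as the authors deposited them, so levels can be set against each other between genes. Numbers of reads are unknown. Relative depth, read from the steps among low values, differed 1.82-fold between the deepest and the shallowest of the 22 libraries. Between 12270 and 13193 genes had an FPKM of 1 or more. The IP of control mouse 5 and the inputs of control mice 1 and 6 stood apart, with 1515, 1895 and 1579 genes at 0, against 280 to 953 in the others. Estimates for the 6 genes that changed sign, call or size by more than 1.5 times without control mice 1, 5 and 6 are also given without them. Folds below are on the log2(FPKM + 1) scale, which understates changes of low genes, and a gene was called at a limma adjusted p under 0.05.

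**Figure D1:**
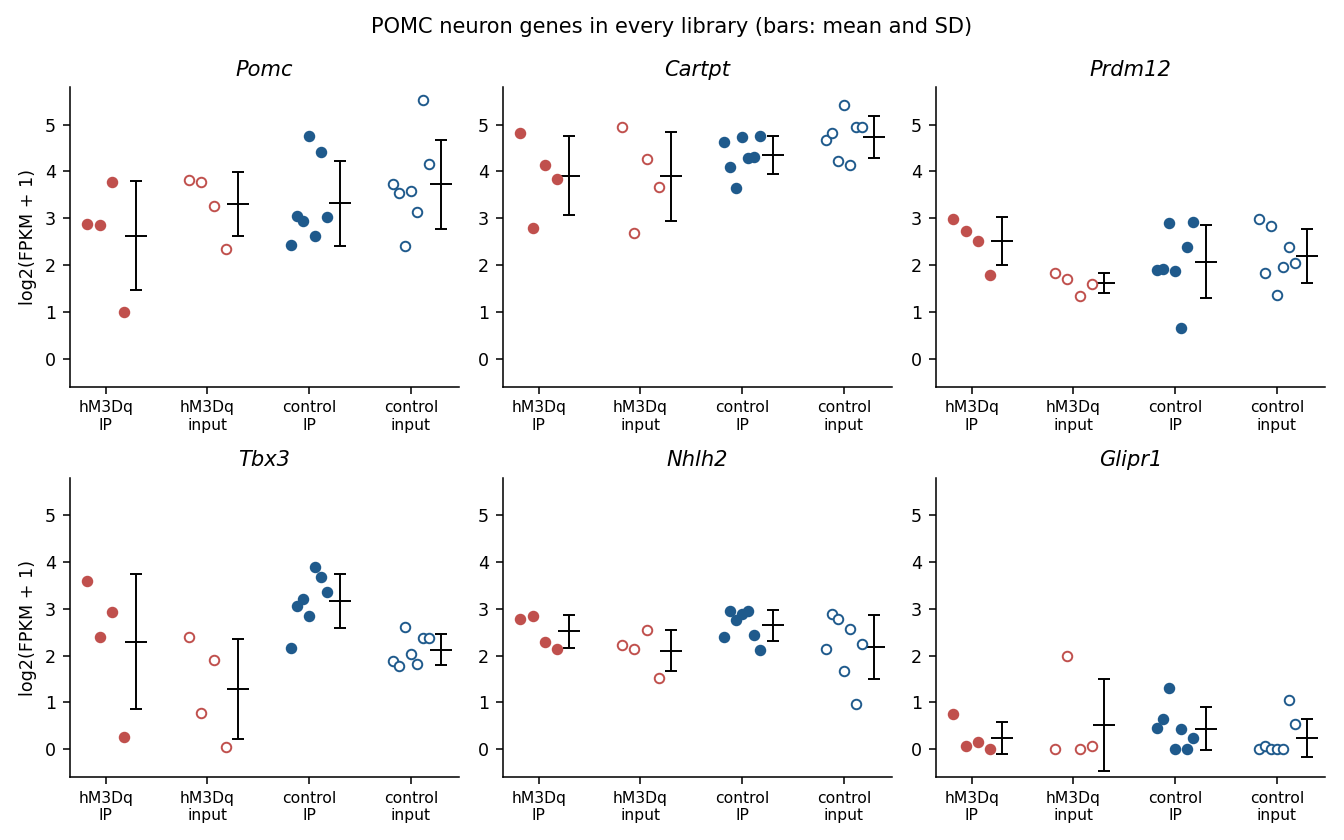
Level of each of the 6 genes, log2(FPKM + 1), in each IP library (filled) and input library (open) of hM3Dq mice (red) and control mice (blue). Bars give the mean and SD. Cartpt and Pomc had the highest means, no Glipr1 value exceeded an FPKM of 2.96, and the IP and input of hM3Dq mouse 5 held the lowest Tbx3 values.

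Pomc was below its input in most IPs, without passing the test. In IPs of hM3Dq mice 1, 3, 4 and 5 its FPKM was 6.34, 6.20, 12.6 and 0.996, against 13.0, 12.6, 8.64 and 4.06 in their inputs. In control mice the IP ran from 4.39 through a median of 7.12 to 26.1 (mouse 4), and the input from 4.34 through a median of 10.9 to 44.8 (mouse 6). The IP thus lay above its own input in 1 of 4 hM3Dq mice and 2 of 7 control mice, and IP and input ranges overlapped in both genotypes. The limma estimate of IP over input was -0.67 in hM3Dq mice (95% interval -1.35 to 0.000219, adjusted p = 0.192) and -0.41 in control mice (-1.06 to 0.25, adjusted p = 0.508). Neither passed the test. Without control mice 1, 5 and 6 the control estimate was 0.02 (adjusted p = 0.986), and the gap between genotypes was -0.70 (exact permutation p = 0.286 over 70 arrangements), against -0.27 with all mice (exact permutation p = 0.6). The sign in control mice thus rested on those animals. In hM3Dq mice the call turned on mouse 4: without it the estimate was -1.06 with a limma adjusted p of 0.0490. Bulk tissue cannot tell fewer cells of a type from less RNA per cell, and this holds for every level given here.

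Between genotypes Pomc averaged 6.54 ± 4.75 in hM3Dq IPs (SD, n = 4) and 10.98 ± 8.54 in control IPs (SD, n = 7), and 9.58 ± 4.17 in hM3Dq inputs and 15.4 ± 13.6 in control inputs. The log2 estimates were -0.69 in the IP (95% interval -1.78 to 0.39, limma adjusted p = 0.926) and -0.43 in the input (-1.40 to 0.55, adjusted p = 0.9997), and neither passed the test. The hM3Dq and control ranges overlapped in both fractions. Without hM3Dq mouse 5 the estimates were -0.15 and -0.11, without control mouse 6 the input estimate was -0.13, and without control mice 1, 5 and 6 together it was -0.13. Without hM3Dq mouse 4 the IP estimate was -1.08, without control mouse 4 it was -0.45, and without control mouse 3 the input estimate was -0.64. The size of the Pomc difference thus rested on single mice. The coefficient of variation of Pomc was 88.3% in control inputs with the high input of mouse 6 and 40.3% without it, against 32.03% and 35.3% for Cartpt. Pituitary tissue would add Pomc. Tbx19, the corticotroph factor, was at 0 in 2 of 4 hM3Dq IPs and 2 of 7 control IPs, and in 2 of 4 hM3Dq inputs and 1 of 7 control inputs. It reached 0.448 FPKM in hM3Dq IPs and 9.28 in control IPs (mouse 6), and 3.599 in hM3Dq inputs and 10.03 in control inputs (mouse 1), while the input of control mouse 6, which held the most Pomc, had 0. Tshb, a pituitary hormone subunit, reached 1.14 FPKM in hM3Dq IPs and 7.13 in control IPs (mouse 5), and 1.71 in hM3Dq inputs and 2.36 in control inputs. The part of pituitary tissue in the Pomc values was not tested.

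Cartpt was the most abundant of the 6 genes in each group mean, and its level in the IP followed the input of the same mouse. In hM3Dq mice 1, 3, 4 and 5 the IP held 27.5, 5.96, 16.7 and 13.4 FPKM, against 29.9, 5.44, 18.3 and 11.7 in the input. In control mice the IP ran from 11.5 through a median of 18.9 to 26.1 and the input from 16.5 through a median of 27.4 to 42.0. IP and input were nearly level in each hM3Dq mouse, while the IP was lower than the input in all but 1 of the 7 control mice. The estimate was 0.01 in hM3Dq mice (95% interval -0.37 to 0.39, limma adjusted p = 0.977) and -0.39 in control mice (-0.76 to -0.02, adjusted p = 0.234). In neither genotype did Cartpt pass the test.

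In the inputs Cartpt averaged 16.3 ± 10.4 in hM3Dq mice (SD, n = 4) and 26.9 ± 8.61 in control mice (SD, n = 7), an estimate of -0.85 (95% interval -1.60 to -0.10, unadjusted p = 0.0293, limma adjusted p = 0.9997). This did not pass the test, and without hM3Dq mouse 3 the estimate was -0.45. The inputs of hM3Dq mice 3 and 5 (5.44 and 11.7) lay below all control inputs, and the other two lay among them. In the IPs it averaged 15.9 ± 8.94 in hM3Dq mice and 20.1 ± 5.39 in control mice, with an estimate of -0.45 (-1.12 to 0.23, adjusted p = 0.926), which was -0.08 without hM3Dq mouse 3 and -0.75 without hM3Dq mouse 1. Pmch, the MCH precursor of neurons that in rodents also make Cartpt, averaged 174 ± 119 FPKM in hM3Dq inputs and 290.3 ± 151 FPKM in control inputs (estimate -0.88, limma adjusted p = 0.9997). Its part in the Cartpt values was not tested.

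Tbx3 was higher in the IP than in the input of all 11 mice, and in control mice it was the only one of the 6 genes that passed the test. Tbx3 (chromosome 5, 119670669 to 119684724, plus strand) had 11.1, 4.28, 6.64 and 0.197 FPKM in IPs of hM3Dq mice 1, 3, 4 and 5, against 4.24, 0.707, 2.77 and 0.0302 in their inputs. The control IPs ran from 3.47 through a median of 8.22 to 13.9, and the control inputs from 2.41 through a median of 3.09 to 5.14. The control ranges overlapped through the IP of mouse 1 (3.47), the lowest of the 7 IPs. IP over input was 1.05 on the log2 scale in control mice (SE 0.262, 95% interval 0.48 to 1.61, limma adjusted p = 0.0397, higher in 7 of 7). It was 1.02 in hM3Dq mice (SE 0.288, 0.37 to 1.66, adjusted p = 0.0533, higher in 4 of 4), which fell just outside the threshold. The difference between the genotypes was -0.03 (95% interval -0.90 to 0.84; exact permutation p = 0.927 over 330 arrangements of mice), and 0.10 without control mice 1, 5 and 6 (exact permutation p = 0.771).

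The Tbx3 call in control mice was a narrow one. Leaving out mouse 2, 3, 4, 5, 6 or 7 ended it (adjusted p between 0.0691 and 0.113, the highest without mouse 2), leaving out mouse 1 kept it, and the estimate stayed between 0.87 and 1.17. Without control mice 1, 5 and 6 together it was 0.91 (limma adjusted p = 0.101). The IP of control mouse 5, 1 of the libraries that stood apart, had both the highest Tbx3 level (13.9) and the highest sum over 6 AgRP neuron markers (520.0 FPKM, against 83.8 to 309.8 in the other control IPs). Agrp itself was called higher in the control IPs, as given with the receptor list. At the other end, hM3Dq mouse 5 had the lowest Tbx3 of all mice, and also the lowest sum over 10 tanycyte markers, at 8.34 FPKM in the IP and 7.91 in the input, against 14.6 to 38.7 in all other libraries. Its AgRP marker sum was 35.8 in the IP, the lowest of all IPs. The AgRP marker sum did not follow Tbx3 in every input. It was 54.4 in the input of hM3Dq mouse 5 and 53.4 in that of hM3Dq mouse 3, which held more Tbx3. Among control inputs it was 139.4 in mouse 3, with the most Tbx3 (5.14), and 249.6 in mouse 6 (Tbx3 4.18). The tanycyte sum did not follow Tbx3 in every library either. Outside hM3Dq mouse 5 the lowest tanycyte sum, 14.6, was in the IP of control mouse 5, which held the most Tbx3. The input of hM3Dq mouse 3, with 0.707 FPKM of Tbx3, held the highest tanycyte sum of the hM3Dq inputs. The part of AgRP neurons and tanycytes in the Tbx3 values was not tested. An antisense gene on the opposite strand, Tbx3os1, overlaps Tbx3 by 697 bases and averaged 0.649 FPKM in hM3Dq IPs, 0.127 in hM3Dq inputs and 0.396 in control IPs, and was under 1e-06 in control inputs. Whether counting used the strand is not given in the sources used here.

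Between genotypes Tbx3 averaged 5.55 ± 4.55 in hM3Dq IPs (SD, n = 4) and 8.60 ± 3.50 in control IPs (SD, n = 7), an estimate of -0.88 (95% interval -1.93 to 0.18, limma adjusted p = 0.922). In the inputs it averaged 1.94 ± 1.93 in hM3Dq mice and 3.47 ± 1.05 in control mice, an estimate of -0.85 (-1.71 to 0.01, adjusted p = 0.9997). Neither passed the test, and the ranges overlapped. Without hM3Dq mouse 5 the estimates were -0.20 in the IP and -0.43 in the input. The highest hM3Dq input value was 140-fold above that of mouse 5 (0.0302), which lay near the floor. Among the other 3 hM3Dq inputs the spread was 6.00-fold, against 2.14-fold among control inputs.

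**Figure D2:**
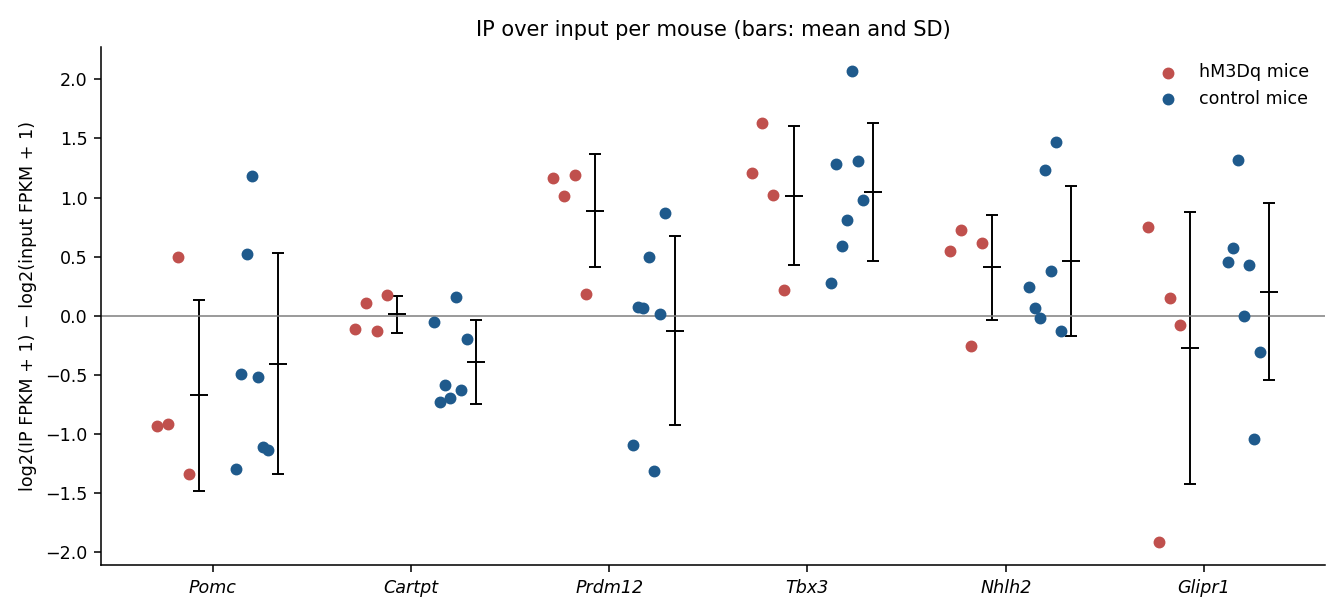
Difference log2(IP FPKM + 1) minus log2(input FPKM + 1) of each mouse for each gene, hM3Dq mice in red left of control mice in blue, with the mean and SD. All points of Tbx3 lie above 0, and for Prdm12 the 4 hM3Dq mice lie between 0.19 and 1.19 while control mice 1 and 5 lie at -1.09 and -1.31.

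Prdm12 leaned to the IP in hM3Dq mice more than in control mice, in a gap between genotypes that shrank without the control mice that stood apart. Prdm12 (chromosome 2, 31640037 to 31655795, plus strand) had 6.94, 5.58, 4.74 and 2.46 FPKM in IPs of hM3Dq mice 1, 3, 4 and 5, against 2.54, 2.26, 1.52 and 2.04 in their inputs. Its control IPs ran from 0.563 (mouse 5) through a median of 2.75 to 6.52, and its control inputs from 1.57 through a median of 3.12 to 6.96 (mouse 1). The IP was above the input in 4 of 4 hM3Dq mice and 5 of 7 control mice, and in hM3Dq mouse 5 and several controls the 2 values were close. The estimate of IP over input was 0.89 in hM3Dq mice (SE 0.266, 95% interval 0.29 to 1.48, limma adjusted p = 0.0642) and -0.13 in control mice (-0.79 to 0.54, adjusted p = 0.863). Neither was called.

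The per-mouse difference in Prdm12 averaged 0.89 ± 0.475 in hM3Dq mice (SD, n = 4) and -0.13 ± 0.798 in control mice (SD, n = 7). The gap of 1.02 (95% interval 0.05 to 1.98) had an exact permutation p of 0.0303, where 0.00606 is the smallest the 330 arrangements allow, and an adjusted p of 0.999 by limma over all genes. It rested in part on control mice 1 and 5, whose input or IP stood apart. Without control mice 1, 5 and 6 the control mean was 0.38, the gap 0.51 and the exact permutation p 0.143 over 70 arrangements. With all mice this gap was the widest of the 6 genes. Without those 3 it was narrower than that of Pomc (-0.70) and Cartpt (0.56), and than that of Glipr1 (-0.67), whose values lay near the floor. Between genotypes the Prdm12 level averaged 4.93 ± 1.88 in hM3Dq IPs and 3.70 ± 2.19 in control IPs, and 2.09 ± 0.435 in hM3Dq inputs and 3.92 ± 1.98 in control inputs. Neither difference passed (estimates 0.43 and -0.59, limma adjusted p = 0.933 and 0.9997). The IP estimate was 0.19 without control mouse 5 and 0.11 without control mice 1, 5 and 6, and it was 0.27 without hM3Dq mouse 1 and 0.67 without hM3Dq mouse 5. An antisense gene, Gm13425, overlaps Prdm12 by 553 bases, with group means between 0.274 and 0.401 FPKM.

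Nhlh2 (chromosome 3, 102010076 to 102015492, plus strand) leaned to the IP in most mice without passing the test. It had 5.88, 6.24, 3.91 and 3.38 FPKM in IPs of hM3Dq mice 1, 3, 4 and 5, against 3.70, 3.38, 4.85 and 1.86 in their inputs. In control mice its IPs ran from 3.35 through a median of 5.78 to 6.75 and its inputs from 0.958 (mouse 6) through a median of 3.76 to 6.40. The IP was above the input in 3 of 4 hM3Dq and 5 of 7 control mice. The estimates were 0.41 (95% interval -0.17 to 0.98, limma adjusted p = 0.349) and 0.46 (-0.13 to 1.06, adjusted p = 0.391). Its level varied least of the 6 genes within the IPs, with a coefficient of variation of 29.2% in hM3Dq mice and 25.5% in control mice. Its genotype difference was -0.13 in the IP and -0.07 in the input, with intervals of -0.65 to 0.40 and -0.87 to 0.73. Without control mice 1, 5 and 6 the control estimate of IP over input was 0.29 and the genotype difference in the input -0.29, and the gap between genotypes in IP over input was 0.12, against -0.05 with all mice.

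Glipr1 (chromosome 10, 111985448 to 112002631, minus strand) was near the floor. In hM3Dq mice 1, 3 and 4 its IP held 0.681, 0.0527 and 0.108 FPKM and the IP of mouse 5 was under 1e-06. Its hM3Dq inputs were under 1e-06 in mice 1 and 4, with 2.96 in mouse 3 and 0.0545 in mouse 5. Control IPs reached 1.49 (mouse 3) and control inputs 1.07 (mouse 6). In 9 of the 22 libraries it was under 1e-06, and in 3 it reached an FPKM of 1, so it was left out of the limma tests and no limma fold is given. It entered the permutation tests that cover all 6 genes, where its values near the floor carry little. The gene overlaps Krr1, a ribosome assembly factor on the opposite strand, by 2985 bases, and Krr1 averaged 58.4 and 41.8 FPKM in hM3Dq IPs and inputs and 56.0 and 46.3 FPKM in control IPs and inputs. Without known strand, reads of the overlap cannot be assigned.

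Ordered by mean FPKM, Cartpt came first in all 4 groups, Pomc next and Glipr1 last. In control inputs the order was Cartpt, Pomc, Nhlh2, Prdm12, Tbx3 and Glipr1, and in control IPs Cartpt, Pomc, Tbx3, Nhlh2, Prdm12 and Glipr1. Cartpt exceeded Pomc in 3 of 4 hM3Dq IPs and 5 of 7 control IPs, and in 3 of 4 hM3Dq inputs and 6 of 7 control inputs. The place of Pomc in control IPs rested on mouse 4. Pomc exceeded Tbx3 in 3 of 7 of these IPs, its median was lower (7.12 against 8.22), and without mouse 4 its mean was 8.46, against 9.01 for Tbx3. Neighbours in the order overlapped in range, except Nhlh2 over Glipr1 in hM3Dq IPs and Tbx3 over Glipr1 in control inputs. Nhlh2, Prdm12 and Tbx3 in control inputs, at means of 3.94, 3.92 and 3.47, did not differ beyond their spread.

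**Figure D3:**
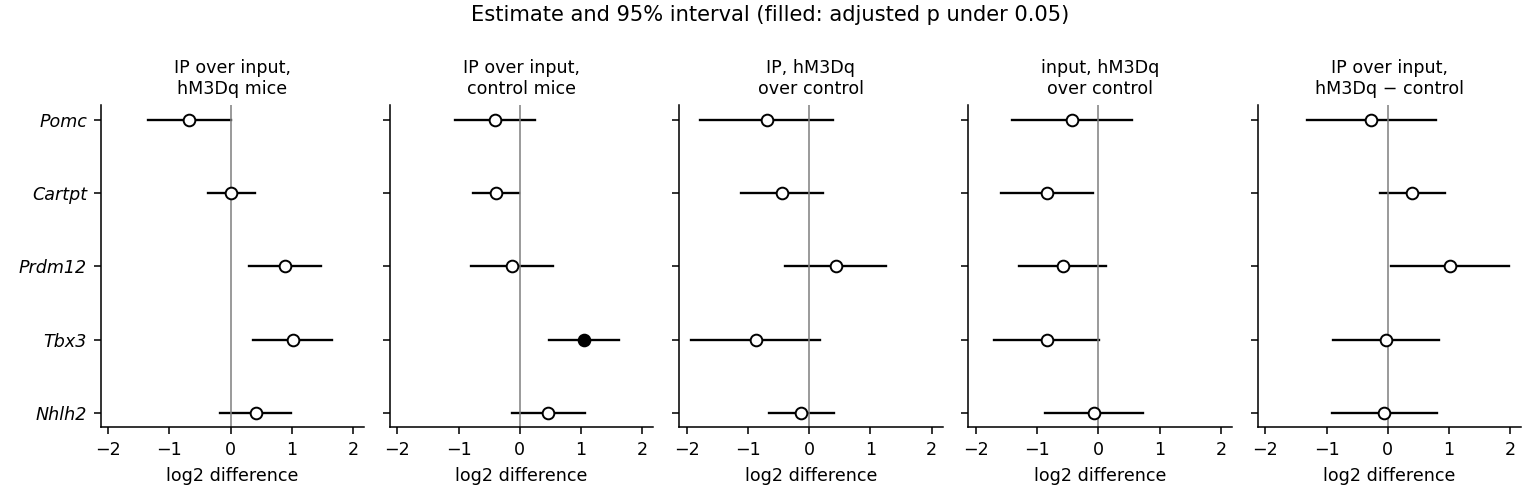
limma estimate and 95% interval of the 5 tested genes in each of 5 comparisons, on the log2 scale, with filled points where the adjusted p was under 0.05. Tbx3 in control mice (1.05) is the only filled point, and all 5 estimates for input between genotypes lie below 0.

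Calls among the members were set beside those among all genes. In hM3Dq mice 0 of the 5 tested members were called for IP over input, where 10.3% of 12987 genes were called and 5.41% were called as higher. At an unadjusted p under 0.05 there were 2 (Prdm12 and Tbx3), where 26.1% of all genes were under it. In control mice 1 of 5 was called, as higher, where 4.84% of 13999 genes were called and 2.23% as higher, and 2 (Cartpt and Tbx3) had an unadjusted p under 0.05, as did 19.5% of all genes. The median member estimate was 0.41 in hM3Dq mice and -0.13 in control mice, against 0.03 over all genes in both. In the IP between genotypes limma called 0 of 5 members (0.00739% of 13531 genes), and 0 members, against 5.23% of genes, lay under an unadjusted p of 0.05. In the input it called 0 of 5 (0% of 13512 genes), and 1 member, Cartpt, against 4.54% of genes, lay under an unadjusted p of 0.05. All 5 input estimates were negative, with a median of -0.59 against -0.02 over all genes, but the 5 share the same mice. For the difference in IP over input limma called 0 of 5 (0% of 14582 genes), and 1 member, Prdm12, against 3.07% of genes, lay under an unadjusted p of 0.05. The comparisons share libraries, so their counts do not stand as separate evidence.

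The authors' deposited table gives its own p-value per gene for IP over input ratios between genotypes, with no adjustment. In the authors' deposited table Prdm12 (p = 0.0405, log2 fold change 1.16) and Cartpt (p = 0.0377, log2 fold change 0.39) were marked significant, among 492 of 17440 genes (2.82%). The authors' deposited table left Pomc (p = 0.528, log2 fold change -0.47), Tbx3 (p = 0.214, 0.74), Nhlh2 (p = 0.555, -0.31) and Glipr1 (p = 0.391, 144) unmarked. Glipr1 lay near the floor, with inputs under 1e-06 in hM3Dq mice 1 and 4. Unlike the log2 differences above, the deposited ratios have no pseudocount. For Tbx3 the ratio of hM3Dq mouse 5 was 6.52, from 0.197 and 0.0302 FPKM, and the gap above was -0.03. All these values rest on the same libraries as the comparisons above. For Cartpt the exact permutation test of the per-mouse log2 difference gave p = 0.0788 over 330 arrangements for a gap of 0.40. Without control mice 1, 5 and 6 the Cartpt gap was 0.56, with an exact permutation p of 0.0286, the smallest that 70 arrangements allow.

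**Figure D4:**
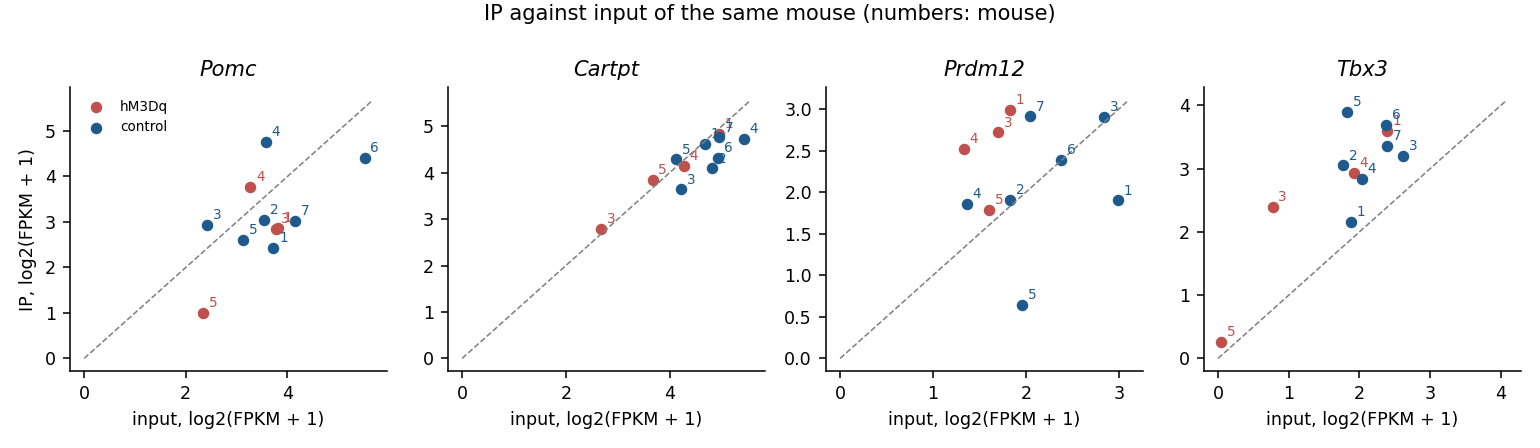
IP level against input level of the same mouse, both as log2(FPKM + 1), for Pomc, Cartpt, Prdm12 and Tbx3, with hM3Dq mice in red and control mice in blue, mouse numbers beside the points and a dashed line of equal level. Cartpt lies near the line in hM3Dq mice and below it in 6 of 7 control mice, Tbx3 lies above it in all 11 mice, and Pomc lies below it in 3 of 4 hM3Dq and 5 of 7 control mice.

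Input and IP levels of the same mouse were correlated for each gene, and differences in r between genes were not tested. Across the 11 mice, Cartpt in input and IP correlated with r = 0.89 and rho = 0.84 (permutation p = 0.00089 and 0.00233, adjusted over 6 relations 0.00534 and 0.0140). Leaving out the 2 mice farthest from the median left r = 0.68, and within the 7 control mice r was 0.66 (exact p = 0.121). For Tbx3 r was 0.84 and rho 0.55 (permutation p = 0.00522 and 0.0868, adjusted 0.0157 and 0.260). The Tbx3 relation rested on 2 mice, since r was 0.35 without the 2 farthest and 0.26 within control mice (exact p = 0.580). Pomc had r = 0.59 and rho = 0.35 (permutation p = 0.0643 and 0.286, adjusted 0.129 and 0.391), with r = -0.00486 without the 2 farthest mice and 0.50 within control mice (exact p = 0.336). Prdm12 had r = 0.10 and rho = 0.14 (permutation p = 0.773 and 0.694, adjusted 0.773 and 0.694). Its genotype estimates had opposite signs in IP and input (0.43 and -0.59), and within control mice r was 0.33 (exact p = 0.463). Nhlh2 had r = 0.36 and rho = 0.33 (permutation p = 0.273 and 0.326, adjusted 0.327 and 0.391), with 0.37 within control mice (exact p = 0.420). Glipr1, near the floor, had r = -0.40 and rho = -0.47 (permutation p = 0.193 and 0.141, adjusted 0.290 and 0.281). Within control mice alone no gene had an exact p under 0.05 (lowest 0.121, Cartpt). Input and IP of a mouse share 1 homogenate.

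Joint variation of the genes between mice was not resolved with 11 animals. Of 15 pairs of genes, 0 passed an adjusted permutation p of 0.05 in the input and 0 in the IP, while 1 input pair and 0 IP pairs had an unadjusted p under 0.05. In 5 of the 15 pairs 1 gene was Glipr1. Over the other 10 pairs Pearson's r ran from -0.51 to 0.70 in the inputs (median 0.17, positive in 8) and from -0.25 to 0.63 in the IPs (median 0.23, positive in 7). The closest input pair was Cartpt and Tbx3 (r = 0.70, rho = 0.60, permutation p = 0.0240 and 0.0567, adjusted 0.360 and 0.546), which fell to r = 0.10 without the 2 farthest mice and to -0.05 within the control mice (exact p = 0.928). Pomc and Cartpt had r = 0.38 and rho = 0.57 in the inputs (permutation p = 0.245 and 0.0728, adjusted 0.525 and 0.546).

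Genes most like single members in the inputs are given as a description with no test. Each was picked for the highest r among many genes over 11 libraries, so these r cannot be set against those of member pairs. Likeness was Pearson's r of log2(FPKM + 1) over the 11 input libraries after removing each genotype's mean, ranked among 8344 genes (8345 for Prdm12, Tbx3 and Nhlh2). For Pomc the closest 5 were Kif1c (0.96), Slc20a2 (0.92), Eif3j1 (0.92), Pym1 (0.89) and Ank2 (0.88). Without the 2 mice farthest from the median of Pomc, r for these genes was 0.85, 0.72, 0.70, 0.54 and 0.72. In the IPs of the same mice these had r of -0.43, -0.07, 0.05, -0.49 and 0.64 with Pomc, so that for 4 of them the likeness was not seen there. For Cartpt the closest were Scg2 (0.96), a secretory granule protein, Clns1a (0.90) and Tac1 (0.90), the substance P precursor, with 0.57, 0.05 and 0.63 in the IPs. For Tbx3 they were Cited1 (0.92), a transcriptional coactivator, Mettl26 (0.89) and Uba6 (0.89), with 0.81, -0.36 and 0.48 in the IPs. For Prdm12 they were Ogdhl (0.94), Fmo1 (0.92) and Dctn4 (0.91), with 0.58, 0.57 and 0.44 in the IPs. For Nhlh2 they were Ttc39c (0.93), Ptpre (0.91) and Jpx (0.91), with 0.20, 0.31 and 0.41 in the IPs.

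The peptide that POMC neurons release is cut from its precursor by enzymes that other peptide neurons use too. Of 7 precursor processing genes tested for IP over input, 1 rose and 2 fell in hM3Dq mice, and 0 rose and 2 fell in control mice, where 10.3% and 4.84% of all genes were called. Pcsk1n, which encodes the proSAAS inhibitor of prohormone convertase 1, averaged 13.2 ± 2.85 FPKM in the IP and 35.3 ± 10.9 in the input of hM3Dq mice (SD, n = 4), lower in the IP on the log2 scale (estimate -1.33, limma adjusted p = 0.00184). In control mice it averaged 17.9 ± 3.50 in the IP and 50.4 ± 9.95 in the input (SD, n = 7; estimate -1.44, adjusted p = 0.00106). Cpe, the carboxypeptidase that trims the cut peptides, averaged 181 ± 50.5 in the IP and 306 ± 133 in the input of hM3Dq mice (estimate -0.70, limma adjusted p = 0.0251). It averaged 196 ± 44.1 in the IP and 307 ± 63.3 in the input of control mice (-0.65, adjusted p = 0.0286). Pcsk2, prohormone convertase 2, rose by 0.76 in hM3Dq mice (19.0 ± 2.72 in the IP and 10.7 ± 1.04 in the input, limma adjusted p = 0.0249). In control mice its estimate was 0.57 with an adjusted p of 0.118, and the difference between genotypes was not called. The Pcsk2 call ended when any of the 4 hM3Dq mice was left out (estimates 0.65 to 0.81, adjusted p 0.0586 to 0.110). The Cpe call ended without hM3Dq mouse 1, 3 or 5 (-0.59 to -0.72, adjusted p up to 0.101) and, in controls, without mouse 2, 3, 4 or 7 (-0.56 to -0.66, adjusted p up to 0.0871). The list's median was 0.08 in hM3Dq mice and -0.35 in control mice, against 0.03 over all genes in both.

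**Figure D5:**
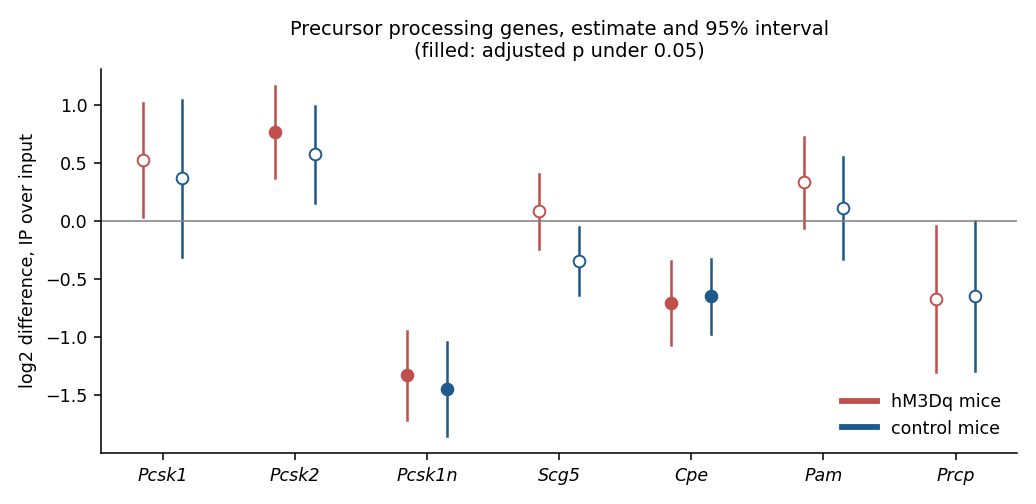
limma estimate and 95% interval of IP over input, on the log2 scale, for 7 precursor processing genes in hM3Dq mice (red) and control mice (blue), with filled points where the adjusted p was under 0.05. Pcsk1n lies lowest in both genotypes, at -1.33 and -1.44.

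Of 9 melanocortin and beta-endorphin receptor and antagonist genes, 7 were in the table. Over all genes 10.3% were called for IP over input in hM3Dq mice and 4.84% in control mice. In hM3Dq mice only Mrap2, Oprm1 and Agrp of this list were tested, and 0 of these 3 were called. In control mice Mc3r and Oprd1 were tested too, and 1 of 5 was called. The receptor genes Mc4r and Mc5r did not meet the FPKM minimum in either genotype, nor Mc3r in hM3Dq mice, so nothing is shown for them. That gene was Agrp, which averaged 40.7 ± 17.7 FPKM in the IP and 20.9 ± 16.3 in the input of control mice (SD, n = 7), a rise of 1.10 (95% interval 0.47 to 1.73, limma adjusted p = 0.0494). The call ended without control mouse 1, 2, 3, 4, 5 or 7 (estimates 0.83 to 1.18, adjusted p up to 0.104). In hM3Dq mice Agrp averaged 24.1 ± 12.6 in the IP and 19.6 ± 12.6 in the input (SD, n = 4; estimate 0.37, adjusted p = 0.442). The medians of this list were 0.37 in hM3Dq mice and 0.23 in control mice, over these unlike sets of tested genes. Receptors for hormones and transmitters known on POMC neurons, such as those for insulin and serotonin, had 0 of 11 called in hM3Dq mice and 0 of 12 in control mice. The leptin receptor gene, Lepr, did not meet the FPKM minimum in hM3Dq mice and was tested for IP over input in control mice only. Of the transcription factors listed for POMC neurons (Nkx2-1, Isl1, Stat3, Foxo1, Six3, Hes6, Bsx, Sox14, Pou3f2 and Nr5a1), 0 of 10 were called in either genotype. Their medians were 0.24 in hM3Dq mice and 0.38 in control mice for the transcription factors, and -0.01 and 0.05 for the receptors, against 0.03 over all genes. Under an unadjusted p of 0.05, limma had 2 transcription factors and 1 receptor in hM3Dq mice, and 4 transcription factors and 1 receptor in control mice, where 26.1% and 19.5% of all genes were under it. In none of these lists was a gene called between genotypes, in the IP, the input or the IP over input difference. Among the wider markers, 4 of 9 pan-neuronal genes were called higher in the IP of hM3Dq mice and 3 of 9 in that of control mice. Over all genes 5.41% and 2.23% were called higher. The pan-neuronal medians were 0.50 and 0.47. Of 8 microglial and macrophage markers, 1 was called lower in hM3Dq mice (Tyrobp, estimate -0.89, limma adjusted p = 0.00839) and 0 in control mice. Tyrobp had the lower estimate in control mice (-1.35, limma adjusted p = 0.0702), so its drop was not particular to hM3Dq mice.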

How the data were processed

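RNA-seq of IP and input from 11 mice was analysed. The submitters' processing notes name HISAT2 2.1.0, StringTie 1.3.4d and the build GRCm38.p6. The authors deposited 1 table of normalized FPKM per gene and library, and how they normalized it is not given in the sources used here. Exact zeros made up 4.05% of its values. The authors also deposited a ratio of IP over input per mouse (all 178363 filled ratios equal IP over input FPKM within 0.1%) and an unadjusted p-value and log2 fold change per gene, which were used only where named.

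Identifiers were matched to GENCODE mouse release 21 (17435 of 17440). Tests covered genes that reached an FPKM of 1 in 4 or more libraries of a comparison, on log2(FPKM + 1) with limma 3.58.1 in R 4.3.3 (eBayes with an intensity trend, two-sided, Benjamini-Hochberg over all genes). The FPKM minimum kept 5 of the 6 members. Mouse entered the IP and input fits as a block because, per the labels' protocols, the input is a portion of the same homogenate. Deviations of IP and input from their group means correlated between 0.130 and 0.297 in hM3Dq mice. In control mice these correlations ran from -0.00241 to 0.0959, so the pairing left little trace there. Shared numbers between genotypes name different animals and were not paired. Permutation tests were two-sided, exact for differences and with 100000 resamples for correlations over 11 mice. The fits were tested on simulated data. Python 3.11.15, SciPy 1.17.1 and matplotlib 3.10.9 were used.

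The members, the 10 gene lists and the mice left out together were chosen with earlier results of these data known. Named were the 6 members, up to 4 genes per pathway list that passed the test, and the genes most like each member among those with a mean input FPKM of 5 or more. Alternatives were a pseudocount of 0.1 or 5, no filter or one at an FPKM of 5, no trend, quantile normalization, no block, 1 fit of all libraries, and leaving out mice. Group means and spreads without 1 mouse and gene pairs without Glipr1 were added after the values were seen. Summed levels of the pituitary list are not reported here.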

Additional observations from a re-analysis of the deposited data

Results flagged for a closer look

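Glipr1 in the input of hM3Dq mouse 3 stood far from the other 3 hM3Dq inputs, at 2.96 FPKM against 0.0545 or less. It was the only such value among 36 sets of group values looked at. By chance about 1 set in 20 is flagged where values are normally distributed, so 1 among 36 is not rare. The IP of the same mouse held 0.0527 FPKM.

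IP over input of Prdm12 differed between genotypes by 1.02 on the log2 scale, with a mean of 0.89 in hM3Dq mice (4 of 4 above 0) and -0.13 in control mice (5 of 7 above 0). The exact permutation p was 0.0303 over 11 mice, for 1 of 6 genes so tested, and the limma adjusted p was 0.999. Without control mice 1, 5 and 6 the difference was 0.51 (exact permutation p = 0.143).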

How the results depend on the processing

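Of 412 member estimates under the alternatives, 400 stayed on their side of the threshold, 3 came past the threshold, 9 lost it and 0 called estimates turned, while 23 estimates that were never called changed sign. In hM3Dq mice 1 member was called for IP over input with a pseudocount of 0.1 (Tbx3, limma adjusted p = 0.0471). Leaving out 1 mouse gave 0 to 1 (Pomc without mouse 4, and Tbx3 without mouse 5, adjusted p = 0.0386). Without hM3Dq mouse 1 or 4, or with the filter at an FPKM of 5, Tbx3 failed the filter there and could not be called. In control mice 0 were called with no filter (Tbx3 adjusted p = 0.0687), in 1 fit of all libraries (0.0853) and without control mice 1, 5 and 6 (0.101), and leaving out 1 mouse gave 0 to 1. Tbx3 there kept its sign in 16 of 16 alternatives and its call in 7. With no replicate block, that is without pairing IP and input, 0 members were called in hM3Dq mice (Tbx3 adjusted p = 0.425) and 1 in control mice (Tbx3, 0.0253). For the 3 comparisons between genotypes 0 members were called in each alternative. The number of correlations past the threshold was 2 with a pseudocount of 0.1 and without the 3 mice. Pcsk1n kept its call in 12 of 12 and 16 of 16 alternatives in hM3Dq and control mice, Cpe in 5 of 12 and 10 of 16, Pcsk2 in 6 of 12 in hM3Dq mice and Agrp in 4 of 16 in control mice. The cause of these changes was not tested.

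Over all genes the calls for IP over input ran from 552 to 1439 in hM3Dq mice (1338 as reported) and from 312 to 1370 in control mice (678 as reported). Between genotypes they ran from 0 to 3 in the IP, and from 0 to 1 in the input and in the difference. Reads are unknown, and 4 and 7 mice limit the precision.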

Other observations

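Lepr, the leptin receptor, is in the receptor list above and was looked at here after its values were seen. Lepr had a limma estimate of -1.09 in the IP between genotypes (adjusted p = 0.810) and was not called. In the IPs it averaged 0.302 ± 0.267 FPKM in hM3Dq mice (SD, n = 4) and 1.95 ± 1.21 FPKM in control mice (SD, n = 7), and the ranges of 0.0573 to 0.550 and 0.462 to 3.69 FPKM overlapped. In the inputs it averaged 0.683 ± 0.719 FPKM in hM3Dq mice and 1.13 ± 1.57 FPKM in control mice. Bsx, of the transcription factor list, had a larger limma estimate in the IP between genotypes (-1.35, adjusted p = 0.848) and was not called either.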
